A study of Mus musculus with 6 samples.

Results

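The extracellular matrix of skeletal muscle was described in quadriceps, the large muscle at the front of the thigh, through the transcripts of collagens, laminins and a few interstitial matrix proteins. The members were all probe sets (groups of short oligonucleotides that together read 1 transcript) annotated with exactly 1 gene whose symbol is a numbered collagen chain, a numbered laminin chain, or Dpt, Dcn, Lum, Fn1, Npnt, Postn, Fbn1 or Lox. Of 116 such probe sets for 59 genes, 83 probe sets for 47 genes had a mean signal over the 6 arrays above 37.8 and were kept, out of 26995 tested and 45101 in all. Fbn1 was not analysed here. Affymetrix arrays were hybridised with RNA of 3 transgenic muscles and 3 wild-type muscles, 1 array for each biological replicate. The transgenic mice carried ERRγ (gene Esrrg), a nuclear receptor without a known natural ligand, under a skeletal actin promoter (genotype written as hSkeletal Actin -ERRg transgenic), which is active in muscle fibres and not in the fibroblasts or vessel cells of the tissue. The controls were wild-type, and all animals were male C57/BL6 mice of 8 weeks. Nothing in the labels gives the number of transgenic founder lines.

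The matrix around a muscle fibre has layers with different makeup. Next to the fibre, and around each capillary, lies a basement membrane, a sheet built of collagen IV and of laminins, each laminin being a trimer of an α, a β and a γ chain, which integrins and dystroglycan hold to the cell. Between the fibres lies interstitial matrix, in which fibrillar collagens made mainly by fibroblasts form cables that are crosslinked by lysyl oxidase and decorated by small proteoglycans.

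Among the members, nephronectin (Npnt) was lower in transgenic muscle, at a log2(signal + 16) difference of -2.77 at its brightest probe set, with transgenic signals near the signal minimum. Transcripts of the basement membrane chains collagen IV α1 (Col4a1) and laminin α5 (Lama5) rose, each at 1 of 2 tested probe sets. Those of laminin γ1 (Lamc1) and lysyl oxidase (Lox) fell at 1 of 2, and dermatopontin (Dpt) fell at its only tested probe set. Collagen V α1 (Col5a1) and collagen XXII (Col22a1) fell at 1 of 3 each. Npnt was called at 2 of 4. Of the genes with more than 1 tested probe set, 0 were called at all of them. The most abundant signals, those of collagens I and III and of decorin, did not pass the test. In all, 2 of 83 probe sets were called higher and 7 lower, at an adjusted p under 0.05. The 7 include the second Npnt probe set, which passed the signal minimum only through its wild-type signals. Over all 26995 tested probe sets 6.38% were called higher and 5.16% lower, 11.5% together. The members' 10.8% is near this background for both directions together. By direction, more members were called lower than higher, unlike all probe sets, and this split was not tested. The counts also moved with the scaling of the arrays, as given below. By gene, at the brightest probe set, 2 of 47 were called higher and 4 lower, or 12.8%, where 13.4% of 12529 genes were called (7.65% higher, 5.75% lower). The median log2 difference of the 47 genes was -0.14, with 34 below 0, and that of all genes was 0.03, with 5791 of 12529 (46.2%) below 0. Transgenic and wild-type signals were fully apart at 28 of 83 member probe sets, 8 higher and 20 lower in transgenic muscle, and at 31.0% of all tested probe sets. The 20 include the second Npnt probe set and a Col9a1 probe set that passed the minimum the same way. How the 31.0% split by direction was not counted.

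**Figure D1:**
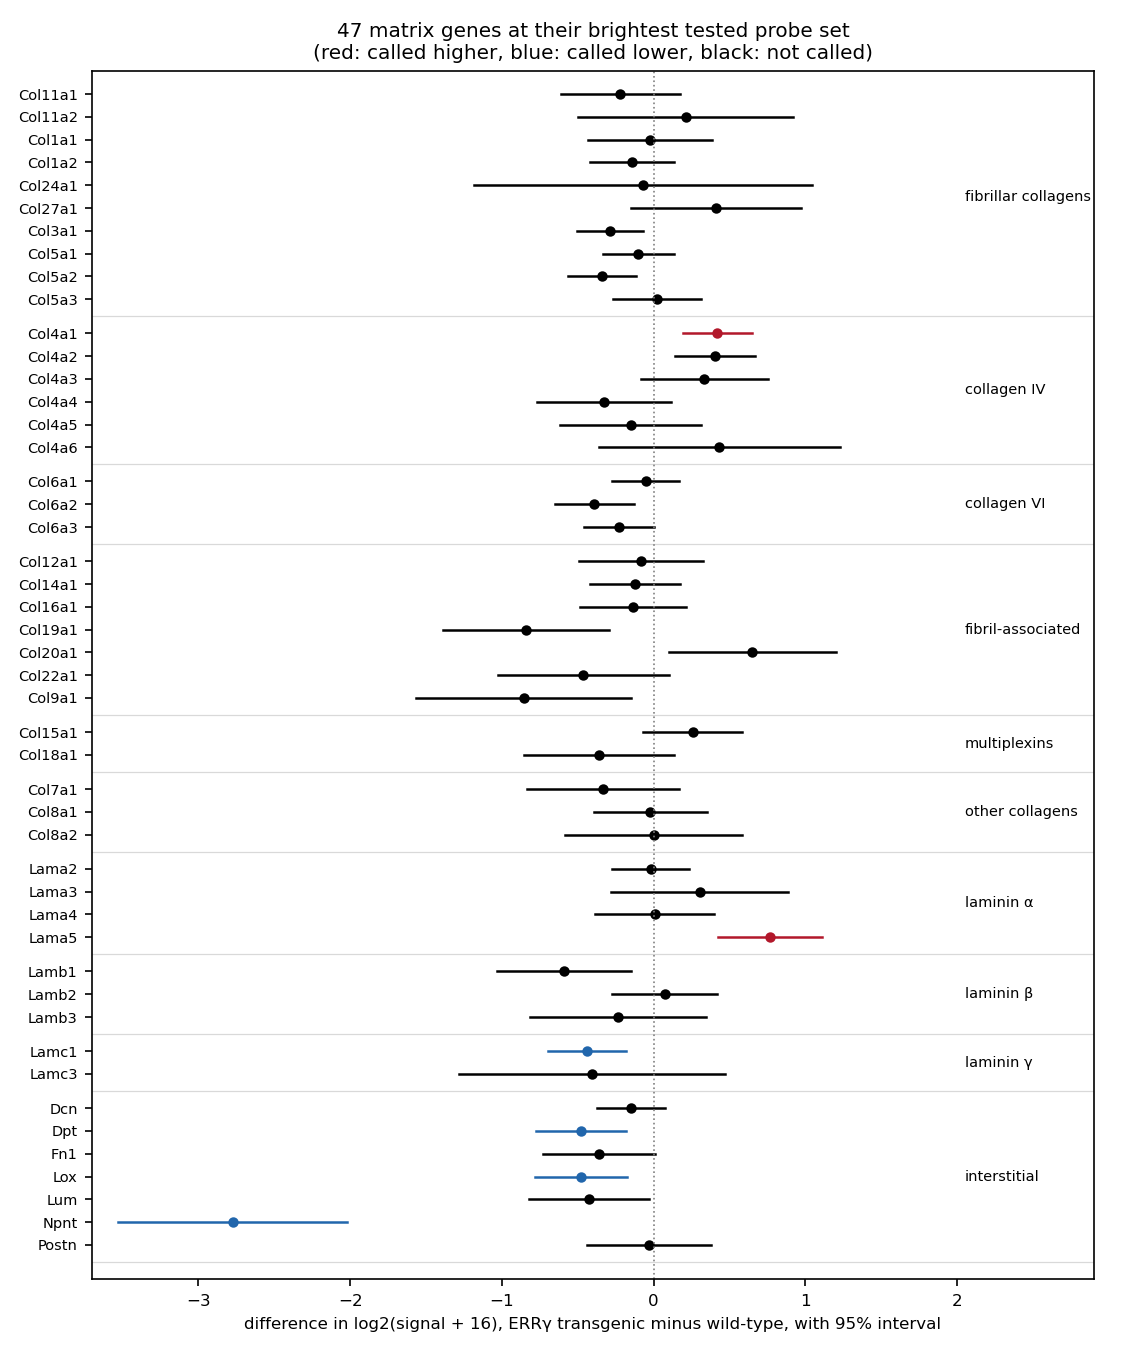
Differences in log2(signal + 16) between transgenic and wild-type muscle (horizontal axis) with 95% confidence intervals, for 47 genes at their brightest tested probe set, grouped by kind of matrix protein (3 arrays per genotype). Npnt lies at -2.77, far left of all others, and the rest lie between -0.86 and 0.77.

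The promoter windows of Npnt and of the collagen IV pair are shown first, since Col4a1 and Col4a2 are transcribed head to head and their values are set side by side afterwards. The sequences are from RefSeq, build GRCm38.p6, 5′ to 3′ on the strand of the gene, from 250 bases before its annotated start. Capitals in the collagen IV windows mark the 78 bases, chr8:11312777-11312854, that both windows hold, on opposite strands. In the Npnt window, which is the first of the 2 listed for this gene, capitals mark AGGTCA, the half-site bound by many nuclear receptors. The other Npnt window does not hold AGGTCA.
Col4a1, chr8:11312777-11313076, minus strand: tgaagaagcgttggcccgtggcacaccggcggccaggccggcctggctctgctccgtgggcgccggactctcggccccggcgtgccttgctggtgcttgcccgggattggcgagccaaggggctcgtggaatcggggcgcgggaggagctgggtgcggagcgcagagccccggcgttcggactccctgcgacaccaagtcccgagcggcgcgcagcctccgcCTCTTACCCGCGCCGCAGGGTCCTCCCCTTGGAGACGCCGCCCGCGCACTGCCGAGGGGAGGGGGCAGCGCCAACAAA
Col4a2, chr8:11312555-11312854, plus strand: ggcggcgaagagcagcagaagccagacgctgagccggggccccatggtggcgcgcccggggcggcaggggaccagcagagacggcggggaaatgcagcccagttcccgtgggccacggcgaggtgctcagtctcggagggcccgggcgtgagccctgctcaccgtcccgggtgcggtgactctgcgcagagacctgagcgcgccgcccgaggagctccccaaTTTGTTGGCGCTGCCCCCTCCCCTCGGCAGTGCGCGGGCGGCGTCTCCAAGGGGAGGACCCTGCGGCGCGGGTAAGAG
Npnt, chr3:132950242-132950541, minus strand: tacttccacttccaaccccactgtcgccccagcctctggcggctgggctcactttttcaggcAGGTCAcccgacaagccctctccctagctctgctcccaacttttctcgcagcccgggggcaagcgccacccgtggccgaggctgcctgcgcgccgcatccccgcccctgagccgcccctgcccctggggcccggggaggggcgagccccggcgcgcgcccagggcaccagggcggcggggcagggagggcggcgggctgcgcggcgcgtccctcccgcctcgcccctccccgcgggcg
AGGTCA was searched on both strands. It was found in 8 of 39 promoter windows of the members (20.5%, with 33 of the 47 genes listed in the table) and in 16.3% of all 32851 windows. The longer half-site preferred by ERR receptors, AAGGTCA, which contains AGGTCA, was found in 4 of the 39 (10.3%) and in 4.72% of all windows. The 4 were Col11a1, Col24a1, Col7a1 and Col9a1. Its extended form TNAAGGTCA was found in 1 of the 39 (2.56%, Col11a1) and in 1.28% of all windows. These 4 genes did not pass the test, and neither AAGGTCA nor TNAAGGTCA lies in the 3 windows printed. Whether any of these sites is bound was not tested.

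The arrays were checked before the members were compared. Esrrg gave signals of 14427, 13808 and 12697 on the transgenic arrays, against 71.6, 61.0 and 24.1 on the wild-type arrays, at its brightest probe set (exact two-sided permutation p = 0.1, the smallest that 3 arrays against 3 allow). Its other probe sets, at 101.6 to 174 in transgenic against 84.1 to 118 in wild-type muscle and at 49.7 to 58.4 in transgenic against 36.9 to 40.1 in wild-type muscle, did not pass (adjusted p = 0.284 and 0.443). The summed signal of 10 muscle fibre markers, all above the minimum, was 175184 to 195766 in transgenic and 140147 to 175888 in wild-type muscle. Most of the gap between the mean sums came from Mb, Myh1 and Myh2. These 3 were called higher, at log2 differences of 1.45, 0.67 and 2.59, and the other 7 did not pass. Of all genes, 7.65% were called higher and 5.75% lower. Wild-type array 3 stood apart from the other wild-type arrays in the members and in adipocyte markers. Its 47 member genes lay at a median distance of 0.33 on the log2 scale from the average of its group's remaining arrays. For the other arrays this distance was 0.15 to 0.22. Over all genes it was 0.201 for wild-type 3, close to the 0.162 to 0.199 of the other arrays. The 4 adipocyte markers summed to 11532 on wild-type 3. There the transgenic arrays gave 1884 to 5499.6 and the other wild-type arrays 3097 and 4074. The part of this in the members' results was not tested, and values without this array are given where they differ.

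Nephronectin is a matrix protein of basement membranes that binds integrin α8β1. At its brightest probe set, Npnt gave 37.3, 46.1 and 46.1 on the transgenic arrays, against 558, 549 and 187 on the wild-type arrays. All transgenic signals lay near the signal minimum and far below every wild-type signal, of which array 3 was the lowest. The log2 difference was -2.77 (SE 0.34, adjusted p = 0.00065), with means of 43.2 ± 5.1 and 431 ± 211 (SD, n = 3 each), a ratio of wild-type over transgenic of 9.99. No detection calls were used, so whether the transgenic signals stood above background is not known and the ratio holds for the signals as deposited only. A second probe set gave 37.8, 20.2 and 36.4 on the transgenic arrays, against 383, 330.3 and 157 on the wild-type arrays, a difference of -2.62 (SE 0.30, adjusted p = 0.000459). Its transgenic mean of 31.5 lay below the minimum of 37.8, so that it was tested through its wild-type signals, and its values are a description. At the brightest probe set the fall passed under every one of the 18 alternatives run. Its size there depended on the offset, at -3.14 with an offset of 1 and -2.09 with an offset of 64, and on wild-type 3, without which it was -3.27. The second probe set was at -3.12 with an offset of 1 and -1.83 with an offset of 64.

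The other tested Npnt probe sets did not pass. One gave 41.8, 88.8 and 114 on the transgenic arrays, against 106, 123 and 66.2 on the wild-type arrays (log2 difference -0.27, SE 0.31, adjusted p = 0.633). The other gave 91.9, 77.3 and 79.3 on the transgenic arrays, against 113, 88.3 and 75.6 on the wild-type arrays (log2 difference -0.12, SE 0.20, adjusted p = 0.753). Here the genotypes overlapped. All 4 carry the same source sequence in the platform annotation. The dim ones and the second called one have suffixes for probe sets that can read several transcripts. Where the 4 lie on the transcript was not analysed here. Itga8, the integrin subunit that binds nephronectin, gave 87.2, 71.6 and 103.4 on the transgenic arrays and 97.3, 97.3 and 100.9 on the wild-type arrays, and did not pass (log2 difference -0.16, SE 0.19, adjusted p = 0.649).

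**Figure D2:**
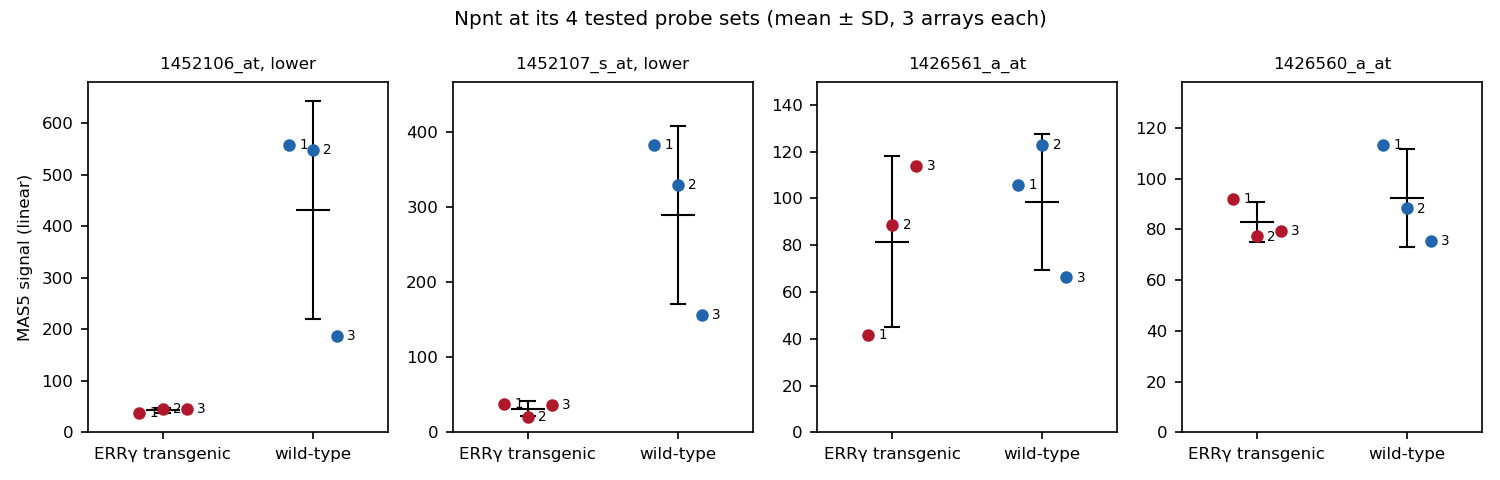
MAS5 signal of Npnt (vertical axes, linear, from 0) at its 4 tested probe sets on each array, with the array number beside each point and bars for mean ± SD of 3 arrays. At the left-hand panels the transgenic points lie between 20.2 and 46.1 and the wild-type points between 157 and 558, and at the right-hand panels the genotypes overlap.

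In the basement membrane, collagen IV forms the network, with trimers of the chains α1 and α2 in most tissues. Col4a1 gave 4424, 3968 and 4703 on the transgenic arrays, against 3022, 3534 and 3221 on the wild-type arrays. Every transgenic signal was above every wild-type signal, and the log2 difference was 0.42 (SE 0.10, adjusted p = 0.0253), a ratio of means of 1.34. Its dimmer probe set had the same order, 1373 to 1772 in transgenic and 1247 to 1311 in wild-type muscle, but did not pass (log2 difference 0.26, SE 0.11, adjusted p = 0.179). Col4a2 gave 1435, 1467 and 1735 on the transgenic arrays, against 1135, 1306 and 1058 on the wild-type arrays. It had nearly the same difference as Col4a1, 0.40 (SE 0.12, 95% interval 0.14 to 0.67), without overlap, and missed the threshold (adjusted p = 0.0548). The call of Col4a1 was lost without transgenic 1, transgenic 3 or wild-type 1 (adjusted p = 0.0923, 0.0849 and 0.103) and after scaling the arrays to a common median (log2 difference 0.27, adjusted p = 0.197). Col4a2 passed after quantile normalization (adjusted p = 0.0377), with robust eBayes (0.0491) and with a stricter signal filter (0.0432). The chains α3 to α6 make the collagen IV of kidney, lung and other specialised membranes. They were dimmer than Col4a1 and Col4a2, with mean signals of 52.5 to 353.5 at their tested probe sets, and did not pass. At their brightest probe sets Col4a3 and Col4a6 had log2 differences of 0.33 and 0.43, and Col4a4 and Col4a5 of -0.33 and -0.15. Col4a3 had no overlap, higher in transgenic muscle, at both of its probe sets.

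Laminins give the basement membrane its cell-binding sheet. Lama5, whose chain is found in vessel walls and at the neuromuscular junction of adult muscle, gave 266, 309 and 310.2 on the transgenic arrays, against 189, 178 and 138 on the wild-type arrays. The groups were well apart, with a log2 difference of 0.77 (SE 0.15, adjusted p = 0.00971) and a ratio of means of 1.76. Its dimmer probe set gave 105 to 174 in transgenic and 62.4 to 90.6 in wild-type muscle (log2 difference 0.69, SE 0.22, adjusted p = 0.0700). The call held when any single array was left out (adjusted p = 0.0194 to 0.0389). Lama2, the α chain of the fibre's own basement membrane, whose loss causes a muscular dystrophy, gave 480.0, 457 and 448 on the transgenic arrays and 443, 507 and 456 on the wild-type arrays. These overlapped fully, and the 95% interval of the log2 difference was -0.27 to 0.24. Lama4, an α chain of capillaries, gave 275, 242 and 375 on the transgenic arrays and 273, 261 and 345 on the wild-type arrays, with an interval of -0.38 to 0.40.

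The β and γ chains went the other way or overlapped. Lamc1, the γ chain shared by most laminins, gave 577, 541 and 603 on the transgenic arrays, against 729, 874 and 755 on the wild-type arrays. All transgenic signals were lower, with a log2 difference of -0.44 (SE 0.12, adjusted p = 0.0342). Its dimmer probe set gave 411 to 432 in transgenic and 389.8 to 521 in wild-type muscle, overlapping, at -0.14 (SE 0.13, adjusted p = 0.575). The Lamc1 call was lost without any 1 of the arrays other than wild-type 3 (adjusted p = 0.0559 to 0.144). Lamb1 gave 513, 353 and 597 on the transgenic arrays, against 592, 721 and 898 on the wild-type arrays, a difference of -0.59 (SE 0.20) that missed the threshold (adjusted p = 0.0842) and passed after scaling to a common median (adjusted p = 0.0478) and with the replicate block (0.0468). Its second probe set, at 167 to 217 in transgenic and 234 to 414 in wild-type muscle, had no overlap and did not pass either (log2 difference -0.63, SE 0.20, adjusted p = 0.0739). Its dimmest tested probe set overlapped, at a log2 difference of -0.03 (SE 0.19). Lamb2, the β chain that is concentrated at the synapse, gave 509, 570.2 and 712 on the transgenic arrays and 553, 661 and 485 on the wild-type arrays, with no order between the genotypes (95% interval -0.27 to 0.42). The dim chains Lama3, Lamb3 and Lamc3, with mean signals of 41.6 to 60.4 at their tested probe sets, did not pass either.

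Markers of vessel cells moved beside the rises of Col4a1 and Lama5. The marker lists that follow stand beside 7.65% of all genes called higher and 5.75% called lower. Of 12 endothelial markers, 9 were called higher and 0 lower, and their summed signal was 6615 to 7489 in transgenic and 3701 to 4375 in wild-type muscle. The pericyte and smooth muscle markers, 10 genes of which 1 (Cnn1) was below the minimum, summed to 15263 to 17594 in transgenic and 11541 to 13581 in wild-type muscle. The 2 called higher were Rgs5 and Kcnj8. The sum was higher mainly through Rgs5, with means of 8773 in transgenic and 5183 in wild-type muscle. Abcc9, the next brightest, was lower on every transgenic array (means 3155 and 3890) and did not pass. The other 8 tested had differences above 0. These names were also chosen after their values were seen. Genes of the muscle nuclei under the synapse, where laminin α5 is also found, did not move one way. Of 8, Chrnd and Colq were below the minimum, and the median log2 difference of the other 6 was -0.36, with 4 of them below 0. Chrna1 and Ufsp1 were called higher, at 1.24 and 0.77, and Ache, Chrne, Etv5 and Musk did not pass, at -0.57, -0.59, -0.34 and -0.37. Their summed signal, 1522 to 2154 in transgenic and 1359 to 1493 in wild-type muscle, was higher through Chrna1 and Ufsp1, and these names were chosen after their values were seen. The Schwann cell markers, 5 genes of which 1 was below the minimum, had 0 calls and sums of 1541 to 1967 in transgenic and 1529 to 1679 in wild-type muscle. The part of these cells in the laminin and collagen IV values was not tested, and in whole muscle a change in the number of a cell type and a change in RNA per cell cannot be told apart. The multiplexins, which are collagens of vessel basement membranes, did not pass. Col15a1 gave 509, 404 and 590.2 on the transgenic arrays and 402, 436 and 398 on the wild-type arrays (95% interval -0.07 to 0.58). Col18a1, the precursor of endostatin, gave 142, 74.0 and 116 on the transgenic arrays and 164, 147 and 118 on the wild-type arrays (interval -0.85 to 0.14). Its other tested probe set, at 81.1 to 93.2 in transgenic and 124 to 134 in wild-type muscle, had no overlap but did not pass (log2 difference -0.51, SE 0.16, adjusted p = 0.0755).

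**Figure D3:**
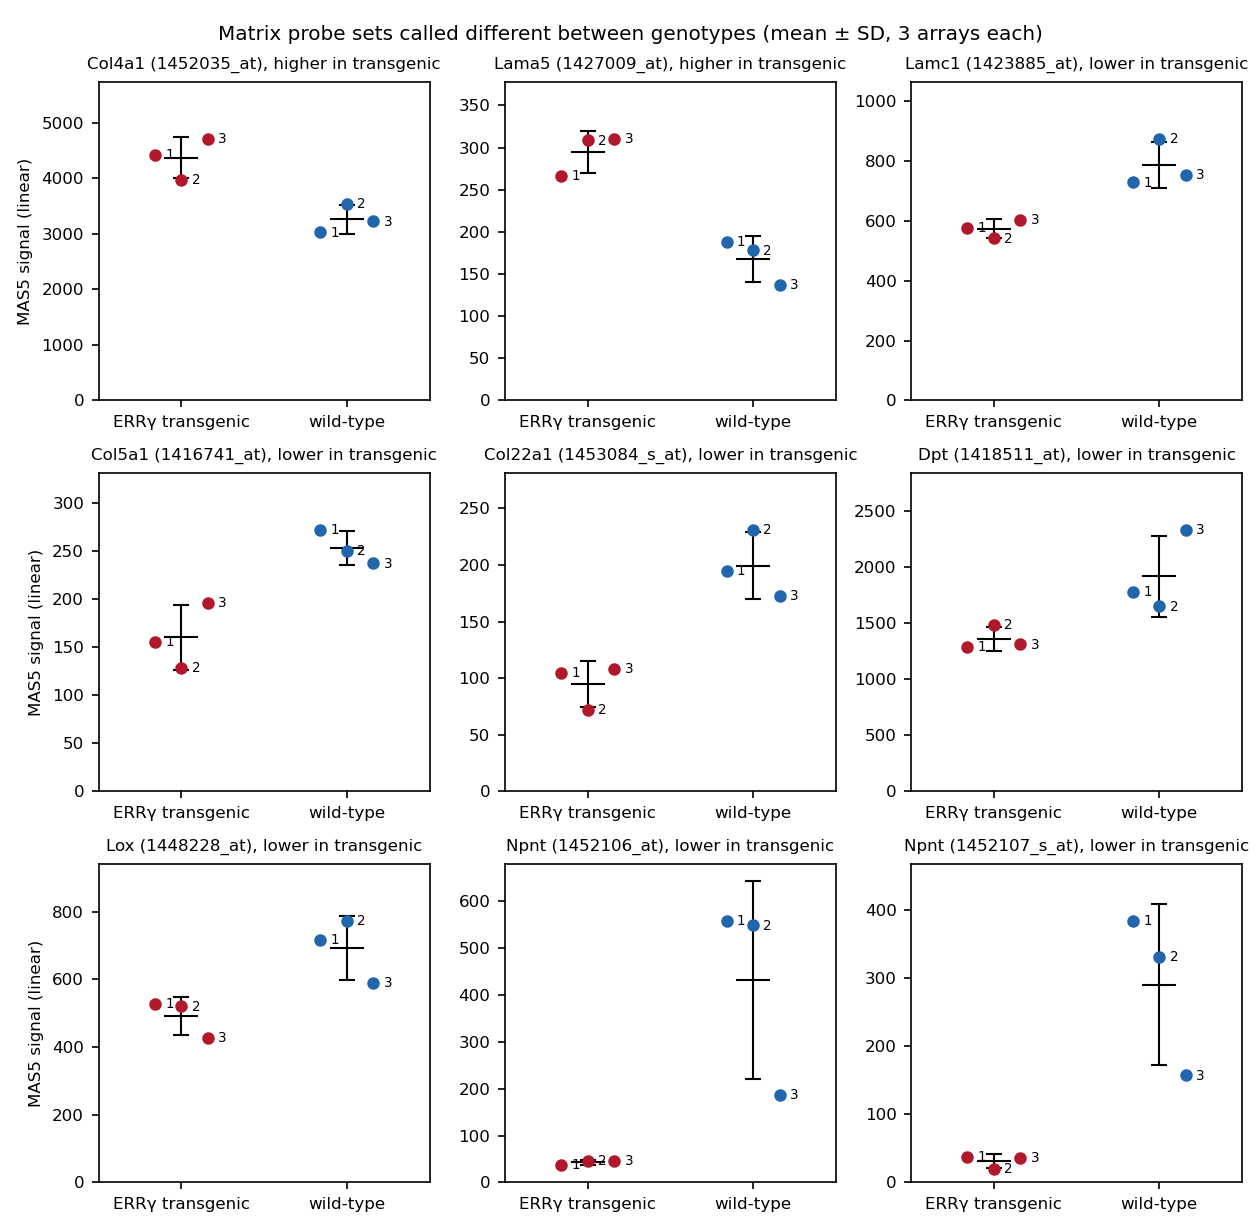
MAS5 signal (vertical axes, linear, from 0) on each array for the 9 member probe sets that passed the test, with the array number beside each point and bars for mean ± SD of 3 arrays. No panel has overlapping genotypes. Wild-type 3 is the lowest wild-type array for Npnt, at 187 and 157, and the highest for Dpt, at 2333. The second Npnt probe set was tested only through its wild-type signals, and its panel is a description.

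Fibrillar collagens, the tensile cables of the interstitium, were among the brightest members, and 0 of their 10 genes passed at the brightest probe set. Col1a1 gave 4802, 3804 and 4454 on the transgenic arrays and 5245, 5235 and 3115 on the wild-type arrays. The wild-type arrays spanned the transgenic ones, because array 3 was the lowest of the 6, and the 95% interval of the log2 difference was -0.43 to 0.38. Its partner chain Col1a2 gave 8409.8, 7049 and 7379 on the transgenic arrays and 8975, 9440.2 and 6956 on the wild-type arrays, again with wild-type 3 lowest (interval -0.42 to 0.13). Without wild-type 3 the differences were -0.27 and -0.28, and neither passed. Col3a1, the chain of thin fibrils, gave 7554, 7923 and 8874 on the transgenic arrays, against 10738, 9618 and 9366 on the wild-type arrays. These did not overlap, but the difference of -0.29 (SE 0.10) missed the threshold (adjusted p = 0.0876), and it passed after quantile normalization (-0.42, adjusted p = 0.00844) and after scaling to a common median (-0.44, adjusted p = 0.0225).

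Collagen V nucleates fibrils of collagen I. The brightest Col5a1 probe set gave 822, 831 and 891 on the transgenic arrays and 873, 882 and 977 on the wild-type arrays, with an interval of -0.33 to 0.13. The dimmest gave 156, 129 and 196 on the transgenic arrays, against 272, 250.2 and 237 on the wild-type arrays. Only the dimmest passed, at -0.63 (SE 0.17, adjusted p = 0.0352), and a middle probe set without overlap, at -0.41 (SE 0.12), missed the threshold with an adjusted p = 0.0535. The call was lost without transgenic 1, transgenic 2, wild-type 1 or wild-type 2 (adjusted p = 0.0967 to 0.129). Col5a2, the second chain, lay at 1059 to 1158 in transgenic and 1335 to 1505 in wild-type muscle (log2 difference -0.34, SE 0.10, adjusted p = 0.0542).

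Collagen VI, a beaded filament around each fibre whose chains are mutated in Bethlem and Ullrich myopathies, did not pass. Col6a1 gave 1236, 1211 and 1183 on the transgenic arrays and 1247, 1188 and 1336 on the wild-type arrays, with an interval of -0.27 to 0.17. Col6a2 gave 1422, 1724 and 1533 on the transgenic arrays, against 1795, 2234 and 2131 on the wild-type arrays, without overlap (log2 difference -0.39, SE 0.12, adjusted p = 0.0576), while its other probe set gave 835 to 913 in transgenic and 834 to 900.4 in wild-type muscle. Col6a3 gave 1548, 1435 and 1708 on the transgenic arrays, against 1954, 1745 and 1799 on the wild-type arrays (log2 difference -0.23, SE 0.10, adjusted p = 0.200). The brighter Col6a2 probe set passed after scaling to a common median (adjusted p = 0.0260), with the stricter filter (0.0458), with array weights (0.0400) and with the replicate block (0.0472).

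Among collagens that attach to fibrils, Col22a1, a collagen of the junction between muscle and tendon, fell at 1 probe set. It gave 105, 71.7 and 108 on the transgenic arrays, against 194, 231 and 173 on the wild-type arrays. The transgenic signals were about 2.1-fold lower in the mean, a log2 difference of -0.97 (SE 0.19, adjusted p = 0.00823). The call held under all 18 alternatives run (adjusted p = 0.00478 to 0.0433). Its brightest probe set gave 211, 85.2 and 129 on the transgenic arrays, against 182, 217 and 173 on the wild-type arrays, and overlapped through transgenic 1 (log2 difference -0.46, SE 0.25, adjusted p = 0.289). The third probe set, at 87.6 to 113 in transgenic and 53.8 to 111 in wild-type muscle, had a difference of 0.19 (adjusted p = 0.682). Beside this fall, the 6 tendon markers summed to 5517 to 6817 in transgenic and 3781 to 6108 in wild-type muscle. Only 1 was called, Thbs4, a matrix protein of tendon, which was higher (means 2250 in transgenic and 1413 in wild-type muscle). Most of the gap between the mean sums came from Thbs4. Signals of Comp (log2 difference 0.30), Fmod (0.18) and Tnmd (-0.11) overlapped between the genotypes. The tendon factors Scx and Mkx were below the signal minimum and were not tested. Scx gave 29.3, 5 and 19 on the transgenic arrays, against 55.6, 39.1 and 31.1 on the wild-type arrays. The part of tendon tissue in the Col22a1 result was not tested. Col19a1 gave 43.9, 31.4 and 61.9 on the transgenic arrays, against 82.5, 105 and 91.2 on the wild-type arrays (log2 difference -0.84, SE 0.25, adjusted p = 0.0521). The other tested members of this kind, Col9a1, Col12a1, Col14a1, Col16a1 and Col20a1, did not pass, nor did Col7a1, Col8a1 and Col8a2.

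Among the 7 genes grouped as interstitial matrix, Dpt and Lox fell along with Npnt, and 4 did not pass. Npnt was grouped here although its protein is one of basement membranes. Dermatopontin, which binds decorin and speeds collagen fibril formation, gave 1288, 1485 and 1312 on the transgenic arrays, against 1779, 1651 and 2333 on the wild-type arrays. The transgenic signals were all lower, with a log2 difference of -0.48 (SE 0.14, adjusted p = 0.0454). That call was lost without any 1 of the arrays other than wild-type 2 (adjusted p = 0.0620 to 0.148), and the difference was -0.33 without wild-type 3. Lysyl oxidase, the enzyme that starts the crosslinking of collagen and elastin, gave 527, 519.8 and 427 on the transgenic arrays, against 716, 772 and 589.8 on the wild-type arrays. It was lower in each transgenic array too, at -0.48 (SE 0.14, adjusted p = 0.0487), and its other tested probe set, at 468 to 513 in transgenic against 529 to 757 in wild-type muscle, did not pass (log2 difference -0.38, SE 0.14, adjusted p = 0.117). The Lox call was lost without any 1 of the arrays other than wild-type 3 (adjusted p = 0.0788 to 0.177).

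Decorin and lumican are small leucine-rich proteoglycans that set the width of collagen fibrils. Dcn gave 6912, 8192 and 6763 on the transgenic arrays and 8606, 7908 and 7699.6 on the wild-type arrays, with a 95% interval of -0.37 to 0.07. Lum gave 771, 1148 and 980.2 on the transgenic arrays and 1084, 1182 and 1655 on the wild-type arrays (log2 difference -0.42, SE 0.18, adjusted p = 0.166). Both overlapped between the genotypes. Fibronectin, Fn1, gave 961, 1141 and 674 on the transgenic arrays and 1115, 1180.0 and 1205 on the wild-type arrays (log2 difference -0.36, SE 0.17, adjusted p = 0.204). Periostin, Postn, which fibroblasts make in repair, gave 578, 655 and 606 on the transgenic arrays and 584, 483 and 865 on the wild-type arrays (interval -0.44 to 0.38). Wild-type 3 was the highest of the 6 arrays for Lum, Fn1, Postn and Dpt, and the lowest wild-type array for Col1a1, Col1a2, Lox and Npnt. Beside these values, 11 fibroblast markers outside the member list had 0 calls in either direction, a median log2 difference of -0.25 and sums of 3908 to 4295 in transgenic and 4752 to 4901.5 in wild-type muscle. The 8 macrophage and leukocyte markers summed to 2573 to 3168 in transgenic and 3444 to 4042 in wild-type muscle, with 1 (Lyz2, named after its values were seen) called lower. For comparison, 7.65% of all genes were called higher and 5.75% lower. The part of fibroblasts and leukocytes in the interstitial values was not tested.

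**Figure D4:**
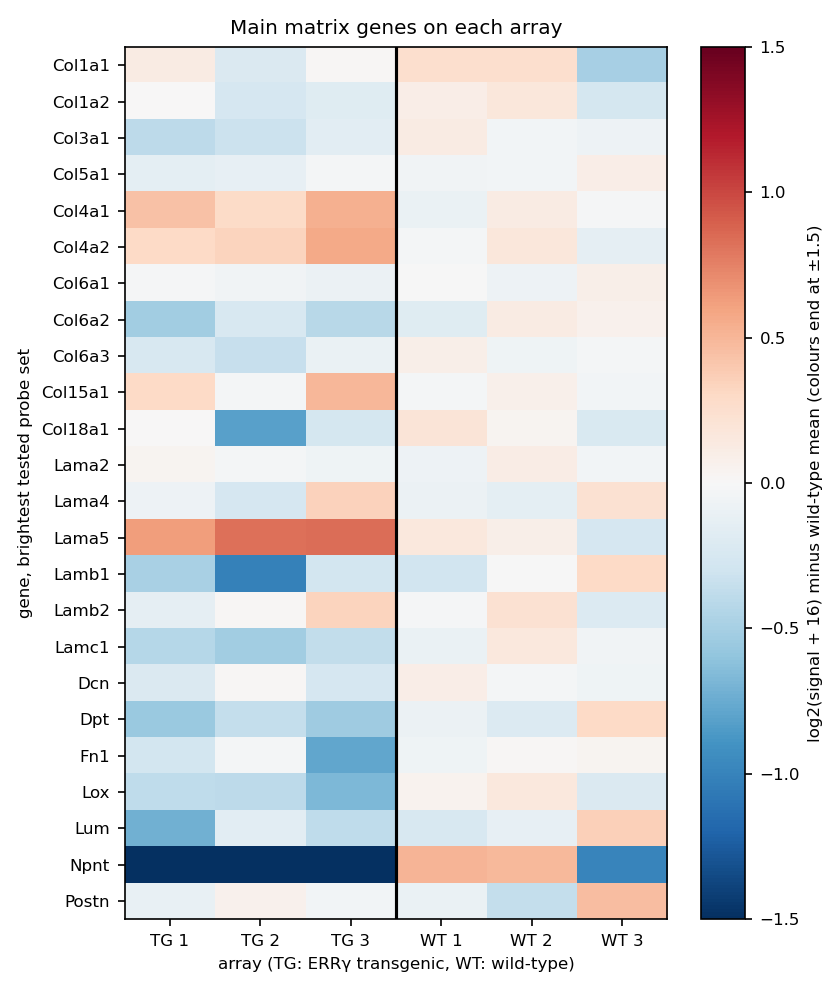
Log2(signal + 16) minus the wild-type mean for 24 matrix genes at their brightest tested probe set (rows) on each array (columns, transgenic left of the line), with colours that end at ±1.5. Col4a1, Col4a2 and Lama5 are red on every transgenic array, Npnt is beyond the scale there, and wild-type 3 departs from the other wild-type arrays in Col1a1, Npnt and Postn.

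Proteins that process, hold or cut the matrix were counted from 5 further lists, at each gene's brightest probe set, beside the 7.65% of all genes called higher and 5.75% called lower. Among receptors and partners of the basement membrane, of 29 tested, 3 were called higher, 2 lower and 24 neither. Bcam, a receptor for laminin α5, gave 186, 262 and 268 on the transgenic arrays, against 119.9, 104 and 127 on the wild-type arrays (log2 difference 0.92, SE 0.17, adjusted p = 0.00668). Itga1, an integrin subunit for collagens including collagen IV, gave 142, 248 and 136.5 on the transgenic arrays, against 72.2, 47.9 and 113 on the wild-type arrays (log2 difference 1.04, SE 0.29, adjusted p = 0.0404). Each gene was higher on every transgenic array, as was Itga6, a laminin-binding integrin subunit, at a difference of 0.78 (SE 0.20). Dag1, dystroglycan, the main laminin receptor of the fibre, fell by 0.57 (SE 0.10) and Sgcb, β-sarcoglycan, fell by 0.51 (SE 0.13), both named after their values were seen. This list had 2 calls without transgenic 1 and 3 without transgenic 3, wild-type 1 or wild-type 2.

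Of 20 genes for collagen processing and export, 0 were called higher, 2 lower and 18 neither. P4ha1, a subunit of the prolyl hydroxylase that stabilises the collagen helix, gave 204, 253 and 184 on the transgenic arrays, against 435, 474 and 308 on the wild-type arrays (log2 difference -0.87, SE 0.18, adjusted p = 0.0116). Sec23a, a coat protein of the vesicles that export collagen, fell by 0.38 (SE 0.09, adjusted p = 0.0239). Leaving out wild-type 1 or 2 left 0 calls in this list, and leaving out transgenic 1 or 2 left 1. Among 38 other matrix proteins, 4 were called higher, 7 lower and 27 neither. Efemp1, a fibulin, fell by 0.72 (SE 0.20), Vcan, the proteoglycan versican, fell by 0.65 (SE 0.19), and Thbs4, thrombospondin 4, rose by 0.70 (SE 0.16). The 11 calls were 5 without transgenic 1, 7 without transgenic 2, 2 without transgenic 3, 1 without wild-type 1 and 3 without wild-type 2.

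Of 17 matrix proteases and inhibitors, 2 were called higher, 1 lower and 14 neither. Timp4, the metalloproteinase inhibitor most abundant in heart and muscle, gave 1227, 1509 and 1992 on the transgenic arrays, against 615, 769.9 and 941 on the wild-type arrays. Every transgenic signal was higher, at a log2 difference of 1.0 (SE 0.19, adjusted p = 0.00676). Mmp9, a gelatinase that cleaves collagen IV among others, rose by 0.73 (SE 0.21), and Timp2 fell by 0.52 (SE 0.13). This list had 1 call without transgenic 3 or wild-type 1, and 4 without wild-type 3. In signalling by TGF-β, the growth factor that drives collagen and fibronectin genes in fibroblasts, of 17 genes, 0 were called higher, 3 lower and 14 neither. Pmepa1, a TGF-β target that limits the pathway, gave 128.5, 142 and 193 on the transgenic arrays, against 374.5, 272 and 337 on the wild-type arrays (log2 difference -1.02, SE 0.18, adjusted p = 0.00466). Smad3, which carries the signal to the nucleus, fell by 0.60 (SE 0.12) and the ligand Tgfb2 fell by 0.52 (SE 0.15). The ligands Tgfb1 and Tgfb3 were at 0.46 and 0.24 and did not pass. Of the 17 genes, 6 had differences above 0 and 11 below. The TGF-β list had 1 call without wild-type 1 and 5 without wild-type 3.

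The counts of members called depended on single arrays and on the scaling. The 7 probe sets called lower were 3 without transgenic 1, transgenic 2 or wild-type 1 and 4 without wild-type 2, and the 2 called higher were 1 without transgenic 1 or wild-type 1 and 3 without wild-type 3. By gene, 4 were called lower, against 1 without transgenic 1, transgenic 2 or wild-type 1 and 2 without transgenic 3 or wild-type 2. The gene count higher was 1 without transgenic 1, transgenic 3 or wild-type 1 and 3 without wild-type 3. Over all probe sets, 1721 were called higher and 1394 lower, or 55.2% higher. Scaling the arrays to a common median moved the median of all probe sets from 0.05 to -0.09 and gave 973 higher and 2390 lower (28.9% higher), with 1 member probe set higher and 17 lower. Centring on the median of the tested probe sets, added after seeing the data, gave 1372 higher and 1747 lower (44.0% higher), with 1 member higher and 11 lower. Over all probe sets the calls higher were 1059 without transgenic 1, 1110 without transgenic 2, 1028 without wild-type 1 and 1130 without wild-type 2. The calls lower were 857 without transgenic 1, 677 without wild-type 1 and 745 without wild-type 2. The arrays' number, 3 per genotype, limits the precision.

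At the signal minimum, members on either side had similar signals. Just above it lay probe sets of Lamc3 and Col9a1, with mean signals of 41.6 and 45.6, and just below it probe sets of Col23a1 and Col9a1, with 34.7 and 32.4. The 33 probe sets below it left 12 genes with none tested, Col2a1, Col6a4, Col6a5, Col9a2, Col9a3, Col10a1, Col13a1, Col17a1, Col23a1, Col25a1, Col26a1 and Lama1. Col2a1 and Col10a1 are collagens of cartilage, and Col17a1 is one of epithelium. One tested probe set besides that of Npnt, for Col9a1, passed the minimum through its wild-type mean of 62.4, where its transgenic mean was 28.8.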

How the data were processed

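RNA extracted with Trizol was labelled with biotin and hybridised to Affymetrix arrays, per the labels' protocols. What the authors deposited is a linear MAS5 signal intensity for each probe set. MAS5 is named in the submitters' processing notes, and no source used here gives its version or settings. Each array's 2% trimmed mean was 200, so that a single factor scaled each array. Median signals were 57.1 to 61.9 on transgenic and 52.1 to 56.3 on wild-type arrays. Depth does not apply to arrays, and detection calls were not used here.

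Gene names came from the platform annotation, in which 34945 probe sets list a single symbol, 932 list more than 1 and 9160 have no entry. Of those with a single symbol, 34741 matched the GRCm38.p6 gene table and 0 symbols changed. Controls (64 probe sets) were dropped, and any other probe set was tested where its mean over 6 arrays was above the 40th percentile. Signals were analysed as log2(signal + 16), which understates the changes of dim probe sets. The comparison of genotypes used limma 3.58.1 (eBayes with trend, R 4.3.3), with two-sided p-values adjusted by Benjamini-Hochberg across the 26995 tested probe sets and a threshold of 0.05. Means ± SD are of signals. A gene was represented by its brightest tested probe set. Confidence intervals are 95% and use limma's moderated error.

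The members and lists were chosen with earlier results of these data known. Per-array values were given for called members with a log2 difference of at least 1 and for a set list of 25 main matrix genes, and for each further list the 3 called genes with the largest difference were named. Lists hold older and newer symbols of some genes as separate names. Per-array values of Col22a1, Col19a1, Itga8, Scx and the genes just below the minimum were chosen with those values in view. Simulated data with known changes served to check the test first. Same-numbered animals were not treated as pairs: correlations of their deviations were 0.070, -0.077 and -0.022. Correlations among members were not computed, since the 6 arrays form 2 genotype clusters. Alternatives to the offset, filter, scaling, variance model, weights, block and representative probe set were run, as were fits with arrays left out. Plots used matplotlib 3.10.9.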

Additional observations from a re-analysis of the deposited data

How the results depend on the processing

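Npnt at its brightest probe set and Col22a1 kept their direction and their call under all 18 alternatives run, and Lama5 under 17 (adjusted p = 0.0510 in the 2 against 2 comparison). Col4a1 kept its call under 10, Col5a1 under 12, Lamc1 under 11, Lox under 9 and Dpt under 8. With single arrays left out, member probe sets called higher ran from 1 to 3 and lower from 3 to 8, member genes from 1 to 3 in each direction, the member gene median from -0.20 to -0.09, and all probe sets from 1028 to 1783 higher and 677 to 1518 lower. List calls ran from 0 to 2 for collagen processing, 2 to 4 for basement membrane and receptors, 1 to 10 for other matrix, 1 to 4 for proteases and 1 to 5 for TGF-β. Leaving out an array leaves fewer samples, and other causes of these moves were not tested.

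With no filter, member probe sets were 1 higher and 4 lower, genes 1 and 2, and list calls 2 for basement membrane and 6 for other matrix. After scaling to a common median, all probe sets were 973 higher and 2390 lower, member probe sets 1 and 17, genes 1 and 9, and basement membrane calls 3. Centring the tested probe sets, added after seeing the data, gave 1 and 11 member probe sets and 1 and 7 genes. Without the eBayes trend, all probe sets were 951 higher and 633 lower, member probe sets 1 and 3, genes 1 and 1, and list calls 0 for collagen processing, 1 for basement membrane, 2 for other matrix, 0 for proteases and 1 for TGF-β. In the 2 against 2 comparison without array 3 of either genotype, 0 member probe sets and 0 genes were higher and 2 other matrix genes were called.

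The replicate block gave 3 member probe sets higher and 8 lower, 2 genes higher and 4 lower, and 1 collagen processing call. It ended the calls of Dpt (adjusted p = 0.0595) and Lamc1 (0.0632) and added Col6a2 (0.0472) and Lamb1 (0.0468). Same-numbered animals share only a number here.

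Only differences that passed in no setting changed sign. Lama4 was at -0.14 after scaling to a common median, -0.010 after quantile normalization, -0.048 after centring and -0.047 in the 2 against 2 comparison, and Lamb2 at -0.077 after scaling to a common median and -0.16 in the 2 against 2 comparison. Postn was at 0.061 with array weights and 0.21 in the 2 against 2 comparison, and Col6a1 at 0.0069 in that comparison. With single arrays left out, Lama4 ran from -0.16 to 0.14, Lamb2 from -0.059 to 0.19, Postn from -0.21 to 0.20, Col1a1 from -0.27 to 0.10 and Lama2 from -0.057 to 0.037.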

Other observations

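Below the signal minimum, 5 of the 33 untested member probe sets had signals that did not overlap between the genotypes, 4 higher and 1 lower in transgenic muscle. The 31.0% without overlap holds for tested probe sets, all above the minimum. The share among all probe sets below it was not computed, so these 5 have no background to be set against. A second probe set of Col4a6, a collagen IV chain, gave 40.9, 43.4 and 28.8 on the transgenic arrays, against 5.1, 17.4 and 6.2 on the wild-type arrays. Col13a1, a transmembrane collagen of the neuromuscular junction, gave 22.7, 14.4 and 2.3 on the transgenic arrays, against 35.9, 28.9 and 38.1 on the wild-type arrays. The others, of Col2a1, Col14a1 and Col19a1, had no signal above 50.4. Signals this low were not tested, and these names were chosen after their values were seen.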
